A study of Mus musculus with 12 samples.

Results

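Osteopontin, the product of Spp1, and the receptors it binds were followed through 12 RNA-seq libraries of the mouse mammary carcinoma line 4T1. The 7 genes were Spp1, Cd44, Itgav, Itgb1, Itgb3, Itgb5 and Itga9, picked by gene symbol out of the 39017 genes listed in the deposited count tables. This list was chosen from earlier results of the same libraries, so its levels are given as a description, and the tests below, which were fitted over all genes, are not independent evidence for the choice. The study asked what loss of POGZ, a zinc finger protein of chromatin, does to triple-negative breast cancer cells and to TGF-beta signaling in them.

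There were 4 groups of 3 libraries. The cultures were 4T1 cells in DMEM with 10% FBS, lysed at 75% confluency; 3 were labelled POGZ WT (VC in the sample titles, called control here) and 3 were labelled POGZ KO. The tumors came from 50k cells of each genotype put into the mammary fat pad of BalbC mice aged 8 weeks, were resected at day 28 and were flash frozen; 3 were labelled POGZ WT (tumors A, B and C here, in the order of their animal numbers) and 3 POGZ KO (tumors D, E and F). All 4 groups share the 4T1 background, and BALB/c mice, the strain 4T1 comes from, keep their immune system. A tumor library therefore mixes RNA of tumor cells and of host cells, and in such bulk samples more cells of a type cannot be told apart from more RNA per cell. Whether the knockout cells were 1 clone or a pool, and whether the 3 cultures of a genotype were grown separately, is not given in the sources used here. The p-values of the cultures thus measure only the spread between these libraries.

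Osteopontin is a secreted, phosphorylated matrix and cytokine-like protein made by bone cells, activated macrophages and many carcinomas. Its Arg-Gly-Asp (RGD) motif is bound by integrins that pair the alpha v chain with beta 1, beta 3 or beta 5. A neighbouring motif, uncovered when thrombin cuts the protein, is bound by alpha 9 beta 1 and alpha 4 beta 1. CD44, the hyaluronan receptor, is a further receptor, mainly in its variant forms. An integrin works only as an alpha and beta pair, so RNA of 1 chain is not a measure of the receptor on the cell surface.

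The stretch of Spp1 that encodes the integrin-binding site is shown because it is what ties the ligand to the receptors measured here. It lies at chr5:104439463-104439522 on the plus strand of GRCm38 (the mm10 build), in the next-to-last exon of the 4 GENCODE M21 transcripts that hold it (exon 6 of 7 in a pair of them, exon 7 of 8 and exon 5 of 6 in the others), and is coding throughout. The capitals mark the RGD codons, and the codons right after them encode the neighbouring integrin site.
Spp1 coding stretch: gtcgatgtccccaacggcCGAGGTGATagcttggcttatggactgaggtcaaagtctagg

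The promoter of Spp1 is shown because Spp1 had the largest log2 difference of the 7 genes between the tumor groups. The 250 bases before the RefSeq start site of Spp1 (chr5:104434861-104435110, plus strand, GRCm38.p6) are given, with capitals on the letters that match a RUNX motif (TGTGGT) or an ETS motif (AGGAAG) on either strand. The promoters of Itgav (chr2:83724147-83724396) and Itgb5 (chr16:33829415-33829664), both on the plus strand, are shown beside it because these receptor chains were the members called in culture.
Spp1 promoter: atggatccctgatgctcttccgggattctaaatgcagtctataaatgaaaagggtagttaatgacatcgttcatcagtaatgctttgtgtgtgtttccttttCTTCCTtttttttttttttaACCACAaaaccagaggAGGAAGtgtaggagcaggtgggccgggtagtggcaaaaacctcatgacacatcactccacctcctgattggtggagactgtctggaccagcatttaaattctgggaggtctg
Itgav promoter: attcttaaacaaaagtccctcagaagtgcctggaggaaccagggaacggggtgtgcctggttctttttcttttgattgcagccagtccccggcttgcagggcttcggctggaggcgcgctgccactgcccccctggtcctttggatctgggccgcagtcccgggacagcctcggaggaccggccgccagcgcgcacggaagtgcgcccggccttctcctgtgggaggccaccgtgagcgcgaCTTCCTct
Itgb5 promoter: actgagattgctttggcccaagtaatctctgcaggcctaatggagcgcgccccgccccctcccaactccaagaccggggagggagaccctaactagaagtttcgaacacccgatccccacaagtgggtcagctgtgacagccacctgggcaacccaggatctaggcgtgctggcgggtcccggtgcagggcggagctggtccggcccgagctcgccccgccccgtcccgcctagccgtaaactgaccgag

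The Spp1 window held 1 RUNX match, 128 bases before the start, and ETS matches at 148 and 112 bases before it. A RUNX match was present in 14.05% of the 32851 RefSeq promoter windows of this length, and an ETS match in 29.5%. No AP-1 match (TGANTCA, held by 6.75% of windows) was found in the windows of Spp1, Itgav and Itgb5. Itgav held 1 ETS match, 8 bases before the start, and Itgb5 held none of the motifs. No RUNX match and ETS match shared a base, and a match is only a description of the letters. The windows of Itgav and Itgb5 were rich in G and C, at 64.4% and 65.2%, with 18 CG pairs each. The window of Spp1 held 43.6% G and C and 3 CG pairs, against medians of 52.4% and 6 over all windows. RefSeq windows were matched for 6 of the 7 genes, all but Itgb3, and a further RefSeq start of Spp1 downstream of this one is not shown.

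Counts assigned to genes ranged from 14724518 to 21863223 per culture library and from 4712001 to 13043831 per tumor library, and the control tumors (at most 8338828) were shallower than the knockout-labelled tumors (at least 12128993). Pogz RNA goes against the label in culture: it was 48.1 to 52.0 CPM (counts scaled to a library total of 1000000) in the control cultures and 67.8 to 68.6 CPM in the cultures labelled knockout, a log2 difference of 0.45 ± 0.04 (SE) with an adjusted p of 3.66e-06 by edgeR's quasi-likelihood test. In tumors the Pogz difference was 0.11 ± 0.20 (adjusted p = 0.944 by the same test). Count tables do not show whether a transcript still encodes a protein, so groups are named here by their labels. The 8 epithelial markers summed to 3202 to 3632 CPM in culture and 1677 to 2259 CPM in tumors. In each culture 7 to 12 of 15 macrophage markers had counts, summing to 41.5 to 56.9 CPM, with Adgre1 and Trem2 at 0 in all. Of 9 fibroblast markers 4 to 6 had counts, summing to 19.5 to 31.0 CPM, with Dcn, Lum and Dpt at 0 in all.

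Spp1 RNA was alike in the cultures and higher in the tumors, most of all in the knockout-labelled ones. The control cultures had 98.7, 99.0 and 96.6 CPM, and the knockout-labelled cultures 104, 104 and 98.3 CPM. The control tumors A, B and C had 1262, 883 and 983 CPM. The knockout-labelled tumors D, E and F had 1919, 2212 and 2070 CPM. All knockout-labelled tumors lay above all control tumors, and all tumors lay far above all cultures, whose groups overlapped. In the knockout-labelled tumors Spp1 ranked 23 to 24 among all genes by CPM, in the control tumors 38 to 62, and in the cultures 2320 to 2513.

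In culture the Spp1 difference between the genotypes was 0.06 ± 0.04 on the log2 scale (SE, edgeR's quasi-likelihood test), with an adjusted p of 0.202. In tumors it was 0.99 ± 0.18, a ratio of mean CPM of 1.98. The Benjamini-Hochberg adjusted p over the 17153 tumor genes of the edgeR fit was 0.647, so Spp1 was not called. With the tumor libraries thinned to the smallest tumor total the Spp1 difference was 0.98. An exact two-sided permutation test on the 6 tumor libraries gave p = 0.1, the smallest that 3 against 3 allows. In this comparison 0% of the genes were called by edgeR, with 956 genes at an unadjusted p under 0.05; Spp1 was number 14 by p. DESeq2 called 66 genes there and Spp1 among them (0.99, adjusted p = 0.000394), and edgeR fitted over all 12 libraries called 64 with Spp1 among them (0.98, adjusted p = 0.00904), whereas limma-voom called none (adjusted p of Spp1 0.760).

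The difference between the tumor effect and the culture effect was itself tested in a fit of all 12 libraries. For Spp1 it was 0.93 ± 0.16 on the log2 scale, with an adjusted p of 0.0141 by edgeR's quasi-likelihood test, and Spp1 was the only one of the 7 members called, where 2.05% of the 18419 genes tested were called. The call was lost without any 1 of the knockout-labelled cultures: the adjusted p was 0.0503 without replicate 1, 0.0508 without replicate 2 and 0.0586 without replicate 3, all by edgeR, with differences of 0.94, 0.94 and 0.91. Without any 1 tumor the Spp1 difference stayed called, between 0.82 and 1.08. The 12-library fit used 1 spread per gene for cultures and tumors together, although Spp1 varied more between tumors. Its SE for the difference (0.16) was below the SE of the Spp1 effect in the tumor fit (0.18). The adjusted p therefore rests on this shared spread and may be too small.

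**Figure D1:**
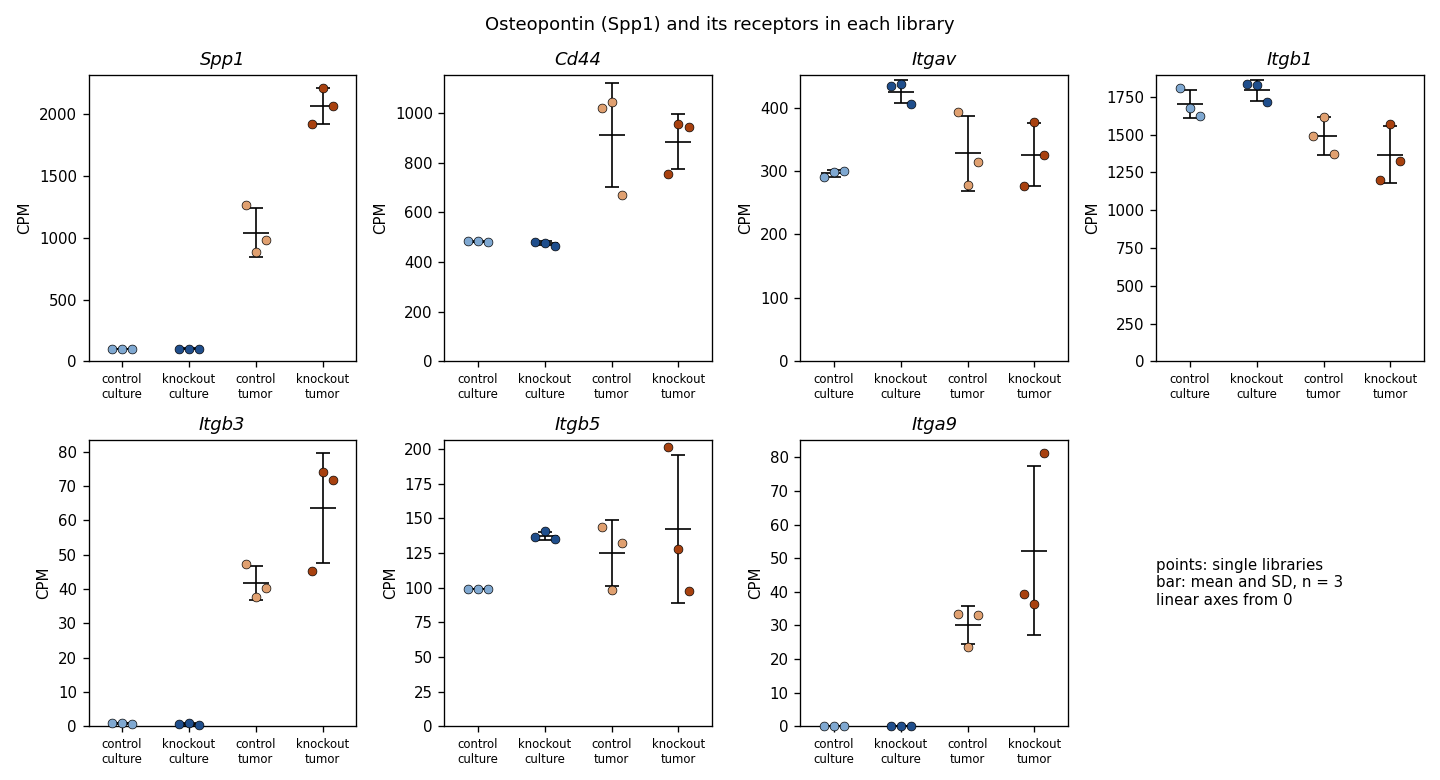
CPM (vertical axes, linear from 0) of the 7 genes in each of the 12 libraries, by group, with points for libraries and bars for the mean and SD of 3 libraries. Spp1 is at 96.6 to 104 in the cultures, 883 to 1262 in the control tumors and 1919 to 2212 in the knockout-labelled tumors, while Itgav and Itgb5 are higher in each knockout-labelled culture than in any control culture.

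Cell types that can make osteopontin differed between single tumors. The 15 macrophage markers summed to 2097, 1215 and 1708 CPM in control tumors A, B and C, and to 1688, 1427 and 3238 CPM in knockout-labelled tumors D, E and F. The ranges of the groups overlap. Of the macrophage markers 12 of 15 were higher on average in the knockout-labelled tumors and 0 were called. The 9 fibroblast markers summed to 3863, 2405 and 3044 CPM in the control tumors and to 3548, 6657 and 4755 CPM in the knockout-labelled tumors, with 9 of 9 positive and 0 called. Tumor E, highest in Spp1, had the lowest macrophage sum of its group and the highest fibroblast sum of all 6 tumors. The 8 epithelial markers summed to 1789 to 2259 CPM against 1677 to 2014 CPM. The 5 osteoclast markers summed to 53.1 to 64.3 CPM against 51.0 to 96.7 CPM. The 4 mammary luminal (milk protein) markers separated the groups as Spp1 did: they summed to 5.31, 4.44 and 0.399 CPM in control tumors A, B and C and to 16.6, 49.9 and 295 CPM in knockout-labelled tumors D, E and F, with 0 of 2 tested called, and Lalba was at 0 in the control tumors. The part of host cell content in the Spp1 difference was not tested.

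**Figure D2:**
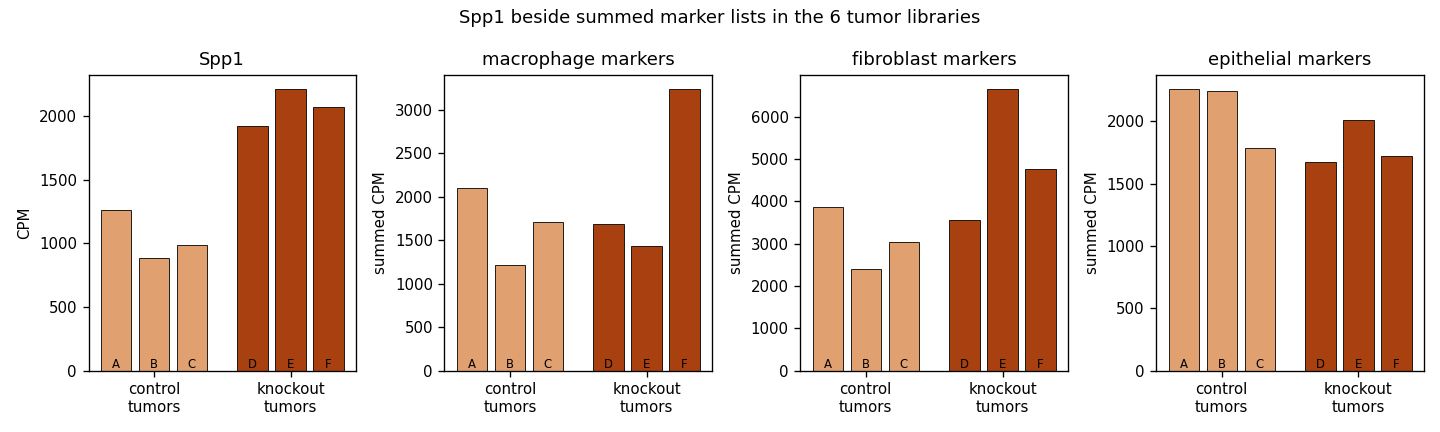
Spp1 CPM and the summed CPM of the macrophage, fibroblast and epithelial marker lists (vertical axes from 0) in the 6 tumor libraries, 1 bar per tumor with its letter. Spp1 separates the groups (883 to 1262 against 1919 to 2212), while the macrophage sums (1215 to 2097 against 1427 to 3238) and the fibroblast sums (2405 to 3863 against 3548 to 6657) overlap.

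Cd44, the hyaluronan and osteopontin receptor, was alike in the genotypes and higher in tumors. The control cultures had 483, 484 and 479 CPM and the knockout-labelled cultures 481, 478 and 466 CPM. The control tumors had 1021, 1043 and 669 CPM and the knockout-labelled tumors 755, 956 and 943 CPM. The genotypes overlap in both systems, and every tumor lies above every culture. The genotype difference was -0.014 ± 0.037 in culture and -0.04 ± 0.21 in tumors on the log2 scale (SE, edgeR's quasi-likelihood test, adjusted p = 0.784 and 0.983). Control tumor C lay well below the other two, which widens the tumor error. These libraries count Cd44 as a gene, so its variant forms were not analysed here.

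Itgav, the alpha v chain, and Itgb5, its beta 5 partner, rose together in the cultures labelled knockout. Itgav had 290, 298 and 301 CPM in the control cultures and 434, 437 and 405 CPM in the knockout-labelled cultures. Itgb5 had 99.35, 99.34 and 99.35 CPM in the control cultures and 136, 141 and 135 CPM in the knockout-labelled ones. Neither gene's culture groups overlap. The log2 differences were 0.53 ± 0.04 for Itgav (adjusted p = 7.60e-07) and 0.47 ± 0.04 for Itgb5 (adjusted p = 6.31e-07) by edgeR's quasi-likelihood test. These were 2 of the 6 members tested in culture, where edgeR called 47.9% of 15705 genes, 23.0% of all genes tested as higher, and where 25.8% had knockout-labelled libraries all above the controls. The share of members called was below that over all genes, and the share called higher was not far from it.

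Both genes lie on chromosomes whose median log2 difference was above 0 in the knockout-labelled cultures. These medians were taken over genes with an average log2 CPM of at least 3. The median was 0.25 over 876 such genes of chromosome 2, which holds Itgav and Cd44, and 0.15 over 333 of chromosome 16, which holds Itgb5. With each chromosome's median taken out, Itgav differed by 0.28 (adjusted p = 0.000191) and Itgb5 by 0.32 (adjusted p = 2.30e-05), both still called by edgeR. Cd44 then became called lower, at -0.26 (adjusted p = 0.000135), and Itgb1 called higher, at 0.17 (adjusted p = 0.0158), in the same edgeR fit. In a fit of all 12 libraries, whose spread includes the tumors, Itgav stayed called (0.52, adjusted p = 0.0311) and Itgb5 did not (0.46, adjusted p = 0.243, edgeR).

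In tumors neither alpha v nor beta 5 RNA separated the genotypes. Itgav had 392, 277 and 314 CPM in the control tumors and 276, 377 and 325 CPM in the knockout-labelled tumors, a log2 difference of -0.0037 ± 0.18. Itgb5 had 144, 98.3 and 132 CPM in the control tumors and 201, 128 and 97.7 CPM in the knockout-labelled tumors, a log2 difference of 0.19 ± 0.28. The adjusted p was 0.999 for Itgav and 0.935 for Itgb5 by edgeR. Tumor D alone was above all control tumors for Itgb5. The test of the difference between tumor and culture effects gave -0.53 ± 0.18 for Itgav (adjusted p = 0.176) and -0.27 ± 0.31 for Itgb5 (adjusted p = 0.736) by edgeR, so neither effect was shown to differ between the systems.

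Itgb1, the beta 1 chain shared by most matrix-binding integrins, was the most abundant receptor RNA of the list in every library. It had 1806, 1678 and 1626 CPM in the control cultures and 1834, 1832 and 1713 CPM in the knockout-labelled cultures. The tumors had 1490, 1620 and 1370 CPM (control) and 1199, 1570 and 1328 CPM (knockout-labelled). The genotypes overlap in both systems: the log2 difference was 0.08 ± 0.05 in culture and -0.13 ± 0.17 in tumors (adjusted p = 0.209 and 0.933 by edgeR's quasi-likelihood test). Without control culture 1 the culture difference was 0.14 and was called (adjusted p = 0.0148, edgeR).

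Itgb3, the beta 3 chain best known from platelets and osteoclasts, was nearly absent from cultures. It was counted 18, 17 and 14 times in the control cultures and 12, 12 and 10 times in the knockout-labelled cultures, which is 0.895 ± 0.131 and 0.656 ± 0.182 CPM (SD, n = 3). The control tumors had 47.3, 37.5 and 40.4 CPM and the knockout-labelled tumors 45.3, 74.0 and 71.6 CPM. Tumors E and F lay above all controls and tumor D within them. The log2 difference was -0.48 ± 0.30 in culture (adjusted p = 0.214) and 0.61 ± 0.21 in tumors (adjusted p = 0.861) by edgeR. The difference between these effects was 1.09 ± 0.37 (adjusted p = 0.170), and without tumor D it was 1.28 and called (adjusted p = 0.0189), again by edgeR. The platelet markers summed to 8.70, 17.6 and 15.8 CPM in control tumors A, B and C and to 12.2, 29.7 and 27.3 CPM in tumors D, E and F. The osteoclast markers summed to 54.5, 53.1 and 64.3 CPM and to 51.0, 96.7 and 96.4 CPM. Both sums, like Itgb3, were higher in tumors E and F than in any other tumor. The same held for the fibroblast, adipocyte and mammary luminal marker sums. In the cultures the platelet markers already summed to 7.17 to 11.7 CPM and the osteoclast markers to 25.4 to 30.8 CPM. Of 3 platelet markers tested between the tumor groups 1 had a positive log2 difference (median -0.12) and 0 were called. The part of these cell types in the Itgb3 level was not tested.

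Itga9, whose alpha 9 chain pairs with beta 1, was found almost only in tumors. It was counted 3, 0 and 0 times in the control cultures and 0 times in each knockout-labelled culture, where 3 counts per library would be 0.172 CPM on average. The control tumors had 33.5, 23.6 and 33.1 CPM and the knockout-labelled tumors 39.2, 36.4 and 81.2 CPM. All knockout-labelled tumors lay above the controls, tumor F by far the most, and the log2 difference was 0.81 ± 0.34 (adjusted p = 0.861, edgeR). With single tumors left out the Itga9 difference ranged from 0.33 to 1.01. Spp1 and Itga9 were the 2 of 7 members whose knockout-labelled tumors all lay above the control tumors, which held for 4.96% of the 17153 genes tested. Tumor F, highest in Itga9, also had the highest macrophage sum (3238 CPM) and T cell marker sum (92.1 CPM, against 23.3 to 53.3 CPM in the other 5 tumors); their part in the Itga9 level was not tested. Its culture counts were too low for a test between the genotypes.

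**Figure D3:**
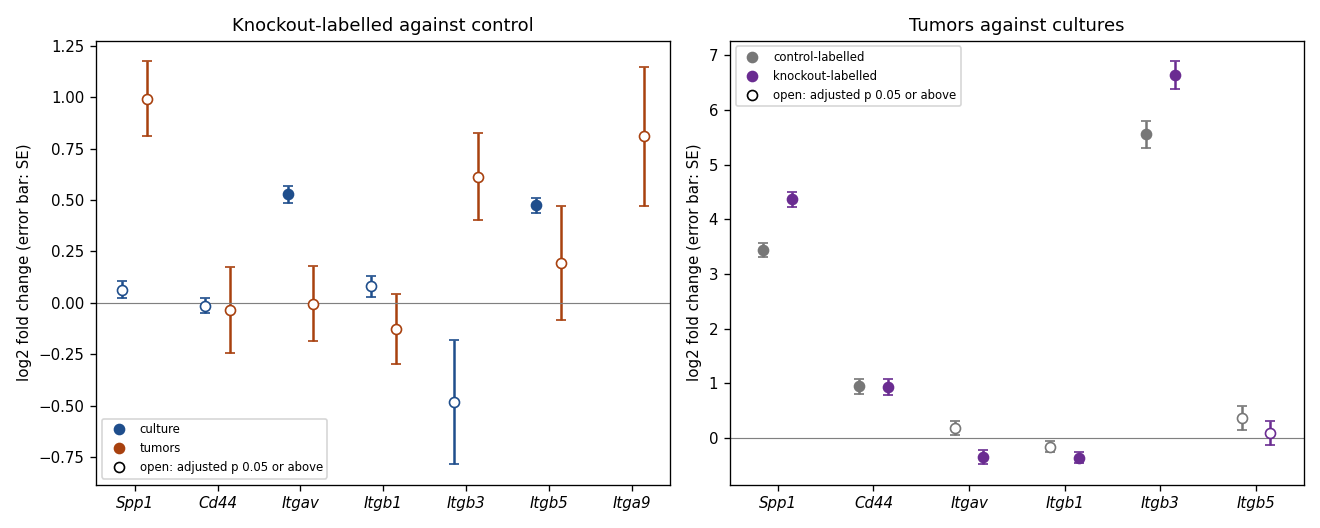
Log2 fold changes with standard errors (vertical axes) from edgeR for the members: on the left, knockout-labelled against control in culture and in tumors, and on the right, tumors against cultures within each genotype; filled points have an adjusted p under 0.05. On the left the filled points are the culture values of Itgav (0.53) and Itgb5 (0.47), and Itga9 has a tumor value only; on the right, where Itga9 is left out because its culture counts were 0 to 3, the filled points above 0 are Spp1, Cd44 and Itgb3.

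Spp1, Itgb3, Itga9 and Cd44 were higher in tumors than in cultures in both genotypes. Between control tumors and control cultures, 4 of 7 members were called, all higher, where edgeR called 64.9% of 18419 genes, 37.9% as higher. Spp1 rose by 3.44 ± 0.13 on the log2 scale (adjusted p = 7.56e-09, edgeR's quasi-likelihood test), a ratio of mean CPM of 10.6. Itgb3 rose by 5.56 ± 0.24 (adjusted p = 1.86e-08, edgeR) and Cd44 by 0.94 ± 0.14 (adjusted p = 0.000132, edgeR). Itga9 was called higher too (adjusted p = 2.30e-06, edgeR): 604 counts in the 3 tumors against 3 counts in the 3 cultures, a depth-corrected ratio of 537 with a 95% counting interval of 183 to 2610. The others were not called, with 0.17 ± 0.13 for Itgav, -0.16 ± 0.10 for Itgb1 and 0.36 ± 0.22 for Itgb5, although without a filter on low counts Itgb1 was called lower (-0.35, adjusted p = 0.0171, edgeR).

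Between knockout-labelled tumors and cultures, 6 of 7 members were called, where edgeR called 64.1% of genes, 37.7% as higher and 26.4% as lower. Spp1 rose by 4.37 ± 0.13 (adjusted p = 2.07e-09), Itgb3 by 6.65 ± 0.26 (adjusted p = 8.43e-09) and Cd44 by 0.93 ± 0.14 (adjusted p = 0.000154) in the edgeR fit. Itga9 was at least 305-fold higher, against a floor of 3 counts in each culture library. Itgb1 fell by 0.36 ± 0.10 (adjusted p = 0.00829, edgeR), and its knockout-labelled tumors all lay below the cultures. Itgav fell by 0.36 ± 0.13 (adjusted p = 0.0283, edgeR), a call that was lost without knockout-labelled culture 1 or 2 or without tumor D (adjusted p = 0.0686, 0.0714 and 0.0810, edgeR), with upper-quartile scaling (adjusted p = 0.0506) or with a filter of 50 counts (adjusted p = 0.0663). Itgb5 differed by 0.08 ± 0.22 and was not called. The tumor groups share the cultures' 4T1 cells but add host cells, whose marker sums went from at most 56.9 CPM to at least 1215 CPM for macrophages and from at most 31.0 CPM to at least 2405 CPM for fibroblasts.

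Set per kilobase of exon, so that genes can be compared, the receptor RNA was mostly beta 1 everywhere. The beta chains compared were Itgb1, Itgb3, Itgb5, Itgb6 and Itgb8, with Itgb7 left out. Of their summed CPM per kb Itgb1 made up 92.1% ± 0.4 in control cultures and 88.8% ± 0.3 in knockout-labelled cultures. In tumors it made up 88.3% ± 1.5 (control) and 85.8% ± 3.5 (knockout-labelled), with SD and n = 3 libraries each. The beta 3 share was 0.0334% and 0.0223% in the control and knockout-labelled cultures and 1.72% ± 0.24 and 2.76% ± 0.58 in the tumors. Beta 3 thus stayed the smaller chain beside beta 5 in all libraries. Among the alpha chains (Itgav, Itga4, Itga5, Itga8 and Itga9), Itgav made up 79.1% ± 0.2 in control cultures and 87.8% ± 0.6 in knockout-labelled cultures, and 58.1% ± 5.8 and 50.8% ± 7.0 in control and knockout-labelled tumors. Itga9 made up 7.47% ± 1.12 and 11.1% ± 3.88 in the tumors, and Itga4, the lymphocyte and monocyte chain that also binds osteopontin, 5.71% ± 1.81 and 10.3% ± 8.02. In tumor F Itga4 reached 19.5%, in the other tumors at most 7.08%.

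**Figure D4:**
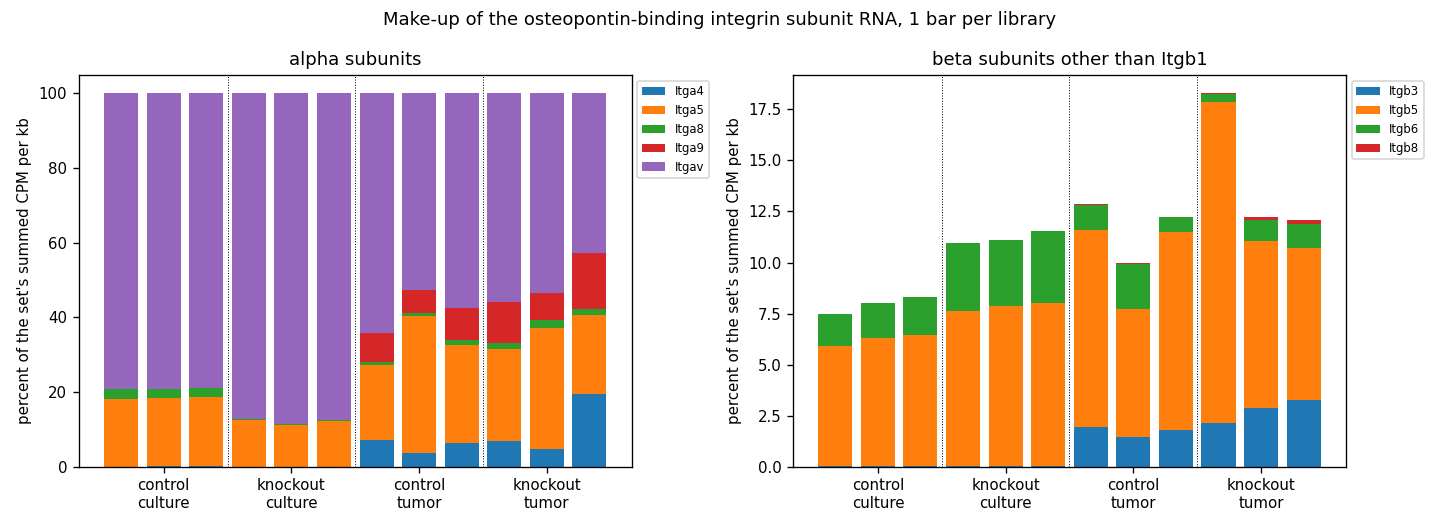
Percent of the summed CPM per kilobase (vertical axes from 0) taken by each alpha chain (left) and by each beta chain other than Itgb1 (right), 1 bar per library, grouped by genotype and system. Itgav takes 79.1% of the alpha chains in control cultures and 87.8% in knockout-labelled cultures, and Itga4 and Itga9 appear in the tumors.

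Ordered by CPM per kb, the 7 genes stood differently in culture and in tumors. In control cultures Itgb1 (417 ± 22.7) was followed by Cd44 (71.1 ± 0.378) and Spp1 (59.5 ± 0.791), then by Itgb5 (28.0 ± 0.00236) and Itgav (27.6 ± 0.519), which differ by less than the SD of Itgav, and by Itgb3 and Itga9 under 0.2 (SD, n = 3). In control tumors Spp1 (633 ± 119) came before Itgb1 (366 ± 30.7) and Cd44 (134 ± 30.9), Itgb5 (35.1 ± 6.68) and Itgav (30.5 ± 5.47) again differed by less than their SDs, and Itgb3 (7.08 ± 0.853) and Itga9 (3.91 ± 0.727) were lowest. In knockout-labelled tumors Spp1 reached 1254 ± 88.9 CPM per kb and Itgb1 335 ± 46.2. Ligand RNA thus passed beta 1 RNA in every tumor and in no culture.

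The ratio of ligand to alpha v RNA, per kilobase, was close to constant within the control tumors, though each gene varied there. Spp1 over Itgav was 2.22, 2.16 and 2.10 in the control cultures and 1.56, 1.55 and 1.58 in the knockout-labelled cultures. It was 20.98, 20.76 and 20.42 in the control tumors and 45.3, 38.3 and 41.6 in the knockout-labelled tumors. The genotypes do not overlap in either system, with the lower ratios in the knockout-labelled cultures and the higher ratios in the knockout-labelled tumors. Spp1 over Cd44 was 3.48 to 6.04 in the control tumors and 9.03 to 10.4 in the knockout-labelled tumors, and Spp1 over Itgb1 was 1.35 to 2.10 and 3.49 to 3.96. Spp1 over Itga9 overlapped, at 139 to 176 in the control tumors and 119 to 283 in the knockout-labelled tumors, with tumor F below all controls. Spp1 over Itgb5 was 16.03 to 19.4 and 20.6 to 45.7, and Spp1 over Itgb3 84.2 to 95.5 and 103 to 152. These ratios were formed after the levels were seen and have no test. Spp1 by itself already separated the tumor groups, and Itgav by itself the culture groups. All the ratios share Spp1, so their separation restates these levels and is not a further result. Knockout-labelled libraries all lay above the controls for 4.96% of genes tested in tumors and 25.8% in culture.

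Enzymes that cut, cross-link or phosphorylate osteopontin changed in both directions in culture. Of the 8 listed, 4 could be tested in culture, and 2 were called higher and 2 lower (median log2 difference -0.08, against -0.01 over all genes). Over all genes tested in culture 47.9% were called, 23.0% as higher and 24.9% as lower, which is the background for each list that follows. All these lists were chosen with earlier results of these data known, so their shares are a description. Mmp9, a gelatinase, fell from 42.0 ± 1.87 to 20.4 ± 2.05 CPM and Mmp3, stromelysin, from 18.9 ± 1.26 to 13.3 ± 0.904 CPM. Tgm2, the transglutaminase that cross-links osteopontin, rose from 100.3 ± 2.01 to 127 ± 1.92 CPM (SD, n = 3). In tumors 0 of 5 tested were called. All 5 were called higher in tumors than in cultures in both genotypes. Over all genes 37.9% were called higher so in the control groups and 37.7% in the knockout-labelled groups, and the tumors add host cells. The other members of osteopontin's gene family on chromosome 5 (Ibsp, Dmp1, Dspp and Mepe) were too low in culture to test; Dmp1, the highest of them, had 0.382 ± 0.184 CPM in control cultures and 41.8 ± 26.5 CPM in control tumors.

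None of the listed regulators of Spp1 rose in the knockout-labelled cultures, in which Spp1 itself was not called. Of Runx2, Ets1, Vdr, Jun and Fos, 0 were called higher and 3 lower (median -0.23, against -0.01 over all genes), where 24.9% of all genes were called lower. Vdr, the vitamin D receptor, fell by 0.48 ± 0.06 on the log2 scale, Jun, an AP-1 subunit, by 0.39 ± 0.06, and Runx2, the osteoblast factor, by 0.18 ± 0.06. In tumors 0 of 5 were called (median -0.30, against 0.02 over all genes). Runx2 had 79.4 ± 19.6 CPM in the control tumors and 80.0 ± 28.1 CPM in the knockout-labelled tumors. Fos, an AP-1 subunit named after its values were seen, had 29.1 to 30.5 CPM in the control tumors and 11.7 to 23.4 CPM in the knockout-labelled tumors, which do not overlap (-0.87 ± 0.27 on the log2 scale, adjusted p = 0.861, edgeR). The RUNX and ETS letters in the Spp1 promoter shown above say nothing of whether these factors bound there.

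Other integrin chains changed in both directions in culture. Of the 5 other chains of osteopontin receptors, 3 could be tested, and 1 was called higher and 2 lower (23.0% and 24.9% over all genes): Itgb6, the epithelial partner of alpha v, rose from 55.4 ± 1.82 to 118 ± 1.71 CPM, Itga8 fell from 6.40 ± 0.284 to 0.950 ± 0.0754 CPM, and Itga5, the fibronectin receptor chain, from 31.6 ± 1.19 to 26.4 ± 1.58 CPM. In tumors 0 of 5 were called, but the difference between tumor and culture effects was called for Itga8, at 3.65 ± 0.41 (adjusted p = 0.00126, edgeR). Of 16 further integrin chains, Itgb8 among them, 10 were tested in culture and 2 rose and 4 fell, 6 of 10 beside 47.9% of all genes. Among them Itgb2, the leukocyte beta 2 chain, rose from 57.7 ± 4.63 to 92.5 ± 2.34 CPM, Itga6, a laminin receptor chain, fell from 337 ± 7.91 to 265 ± 9.87 CPM, and Itga1, a collagen receptor chain, fell from 6.25 ± 1.20 to 1.97 ± 0.122 CPM. The difference of effects was called for Itga1 (1.56 ± 0.29, adjusted p = 0.0198, edgeR).

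Of other ligands of the same integrins, 7 of the 10 tested rose in the knockout-labelled cultures, where 23.0% of all genes did. The list holds 17 ligands, and 1 was called lower, where 24.9% of all genes were, with a median of 0.97 against -0.01 over all genes. Because the list was chosen with earlier results of these data known, these shares are a description and not a test of the ligands. Thbs1, thrombospondin 1, rose from 1350 ± 39.7 to 3058 ± 65.2 CPM, Fn1, fibronectin, from 772 ± 34.4 to 1877 ± 49.0 CPM, and Ctgf, a matricellular target of TGF-beta, from 110 ± 7.25 to 435 ± 12.8 CPM. In tumors 0 of 13 were called: Fn1 had 7805 ± 2560 CPM in the control tumors and 5725 ± 622 CPM in the knockout-labelled ones. The difference between tumor and culture effects was called lower for 3 ligands, Fn1 (-1.73 ± 0.29, adjusted p = 0.00974), Ctgf (-2.10 ± 0.48, adjusted p = 0.0494) and Postn, periostin (-1.99 ± 0.33, adjusted p = 0.0102), by edgeR. Postn is named because it completes this count and was chosen after its values were seen. Over all genes 0.912% were called lower in this test and 1.13% higher. For Spp1 it gave the opposite sign to these 3, 0.93. The sign was also positive for 5 of the 13 ligands tested, with 0 called higher.

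Of 20 focal adhesion genes, which link integrins to actin and to kinases, 9 rose and 4 fell in the knockout-labelled cultures (median 0.01 against -0.01 over all genes), beside 23.0% and 24.9% of all genes. Lims1, an adaptor of integrin-linked kinase, rose by 0.82 ± 0.04 on the log2 scale. Fermt1, a kindlin that activates integrins, rose from 118 ± 3.06 to 185 ± 2.68 CPM, and the kinase Src from 43.4 ± 0.703 to 67.7 ± 4.56 CPM. In tumors 0 of 20 were called. Of 18 genes around CD44 (hyaluronan enzymes and receptors, CD44 sheddases, splicing factors and cytoskeletal partners), 15 were tested in culture, and 5 rose and 6 fell (median -0.09), beside the same background. Has2, a hyaluronan synthase, fell from 115 ± 3.59 to 45.0 ± 2.81 CPM, while Mmp14 and Adam10, which can shed CD44, rose from 144 ± 8.98 to 196 ± 3.68 CPM and from 256 ± 10.6 to 334 ± 8.33 CPM. In tumors 0 of 18 were called.

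The genes whose profile over the 12 libraries was most like that of each member were found by the smallest root mean square difference of centred log2 CPM, out of 11737 genes of sufficient level. The closest to Spp1 were Tmsb4x (0.32), Plxnd1 (0.32), Dhrs3 (0.33), Clec2d (0.34) and Trim30a (0.35). Tmsb4x, thymosin beta 4, had 56.7 ± 3.93 and 38.7 ± 0.885 CPM in control and knockout-labelled cultures and 625 ± 176 and 1084 ± 239 CPM in the tumors (SD, n = 3). The closest to Cd44 was Cflar, to Itgav Rnf115, to Itgb1 Zcchc9, to Itgb3 Pla2g7, to Itgb5 Sestd1 and to Itga9 Itgal, a leukocyte integrin chain with 33.2 ± 9.66 and 54.0 ± 30.5 CPM in the tumors. These values use log2 CPM with a prior count of 2. With a prior of 0.5 the same 5 genes were closest to Spp1, led by Plxnd1 (0.32), whereas Gda (0.70) and Emilin2 (0.75) were closest to Itga9 in place of Itgal. Likeness here is dominated by the step from culture to tumor, which many genes share.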

How the data were processed

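RNA-seq of 12 libraries was measured: 3 control and 3 knockout-labelled 4T1 cultures and 3 tumors of each label. The authors deposited raw counts per gene; per the labels, RNA was column-purified and libraries were made after ribosomal RNA depletion. The submitters' processing notes name mm10 as the build, featureCounts 1.4.4, Trimmomatic 0.32 and, as aligner, STAR 2.3.0e; the strand setting is not given in the sources used here. Without it, reads of Itgav and of the antisense gene Gm13684 (at most 96 counts per library) cannot be told apart; Gm42793, which overlaps Spp1 by 309 bases, was not used here.

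CPM is counts scaled to a library total of 1000000; CPM per kb divides by GENCODE M21 exon length. Tests used edgeR 4.0.16 in R 4.3.3 (filterByExpr, TMM, quasi-likelihood F test, Benjamini-Hochberg over all genes tested, called under an adjusted p of 0.05). Genotype effects were fitted within cultures and within tumors, and tumor against culture and the difference of effects over all 12 libraries. SE is the absolute log2 fold change divided by the root of F. The scripts were checked on simulated counts.

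The members and gene lists were chosen with earlier results of these data known. Genes named were the 7 members and, from each of 8 pathway lists, up to 3 called in culture with the smallest p, or the highest in CPM where none was called. Alternatives were DESeq2 1.42.0, limma-voom (limma 3.58.1), scaling by RLE or the upper quartile, a filter of 50 counts or none, structural RNA left out, a threshold of 0.01, other sample sets, a replicate block, chromosome medians taken out, thinned tumors, and each library left out. Intervals on counts cover counting error only. Depth limits Itgb3 and Itga9 in culture, with at most 18 counts per library. Replicates differed by more than sampling noise, so none was counted as a repeat of another. This does not show that the 3 cultures of a genotype were grown separately.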

Additional observations from a re-analysis of the deposited data

Results flagged for a closer look

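Spp1 is listed here because the genotype difference in tumors and that in culture differed by the test of the difference itself: 0.93 on the log2 scale (adjusted p = 0.0141, edgeR's quasi-likelihood test over 12 libraries), with Spp1 higher in 3 of 3 knockout-labelled tumors than in any control tumor. Such a separation, with knockout-labelled above control, held for 4.96% of the 17153 genes tested in tumors. The Spp1 difference within tumors was itself not called (adjusted p = 0.647, edgeR). The call of the difference of effects was lost without any 1 of the knockout-labelled cultures (adjusted p up to 0.0586, edgeR). It was also lost at a threshold of 0.01. The 12-library fit used 1 spread per gene for cultures and tumors together, and its SE for the Spp1 difference (0.16) was below that of the Spp1 effect in the tumor fit (0.18). Groups of 3 were too small for the check on single outlying libraries.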

How the results depend on the processing

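Of 570 alternative values for 34 member results, 552 kept their direction, 534 also their side of the threshold, and none of the called values changed sign. In tumors, where no gene was called, DESeq2 called 66 genes and the fit of all 12 libraries 64, each with 1 member, Spp1. The 377 differences between the systems became 953 with DESeq2 and 125 at a threshold of 0.01, where 0 members were called, and ranged from 147 to 1588 with each library left out (0 to 2 members), lowest without knockout-labelled culture 3 and highest without tumor D. In culture, 7523 genes were called, 1501 in the fit of all 12 libraries (1 member), and with chromosome medians taken out 4 members. Values near 0 changed sign. The Cd44 difference became 0.0059 with RLE scaling, 0.0059 with DESeq2 and 0.0023 with limma-voom. Without a filter, Itgav became 0.020 in tumors and -0.016 between control tumors and cultures, and Itgb5 -0.10 between knockout-labelled tumors and cultures. With chromosome medians taken out Spp1 became -0.036 in culture. With single libraries left out, Cd44 ranged from -0.016 to 0.014 in culture, -0.21 to 0.073 in tumors and -0.18 to 0.087 in the difference, Itgav -0.12 to 0.12 in tumors, and Itgb5 -0.15 to 0.39 in tumors and -0.28 to 0.21 between knockout-labelled tumors and cultures. The cause was not tested. Culture replicate numbers did not pair the samples (correlations of -0.16, 0.03 and 0.07); with the replicate block 7237 genes and 2 members were called. Between 10 and 18 counts of Itgb3 and 0 to 3 of Itga9 per culture library limit those values.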
